A study of Mus musculus with 12 samples.

Results

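The 34 genes described here encode proteins that sense DNA damage, halt the cell cycle in response and rebuild broken DNA from an intact copy. They were chosen by symbol and function, with earlier results of these data known. Of the 34 genes, 33 had a probe that could be named on the array and 31 were tested, among 14440 genes tested of 21367 named genes. Rad51c had no named probe. Brca1 and Chek1 had probes too dim for testing.

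The RNA came from mouse embryonic fibroblasts, connective tissue cells cultured from C57BL/6 embryos at E12.5 to E13.5, after transduction with viral vectors. The 12 samples, each on its own 1-colour Agilent array, formed 4 groups of 3: shp53 (a short hairpin RNA against mouse p53 mRNA), RASV12 (an oncogenic form of RAS), shp53 followed by RASV12 (called shp53-first cells here; T cells in the design text) and RASV12 followed by shp53 (RASV12-first cells; TS cells in the design text). The samples analysed here include no cells without a vector, so every comparison is between cells that carry at least 1 vector. The design text describes the 3 samples of a group as independent biological replicates and the p-values reflect only how far these arrays spread. The title contrasts transformation that follows senescence with transformation of cells that were never senescent. The labels used here do not give the promoters of the vectors, the time between transductions or the time to harvest.

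Homologous recombination copies the lost sequence at a broken or stalled site from the sister chromatid. It depends on resection of the ends, on BRCA2 and its partners, which prepare the single strand for pairing with the intact copy, and on helicases and nucleases that resolve the joined molecules. The Fanconi anaemia proteins open the way for this repair at DNA crosslinks. ATM and ATR are the kinases that detect breaks and stalled forks, and they signal through CHEK2 and CHEK1 to the cell cycle machinery and to p53. Many genes of homologous recombination are transcribed mainly when cells replicate their DNA, whereas p53 and RAS can both alter whether a fibroblast divides. Oncogenic RAS is known to cause replication stress and senescence in normal fibroblasts.

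All levels below are log2 signals relative to the 75th percentile of their own array, and all differences are log2 differences between group means with the standard error from limma (n = 3 arrays a group). A gene is called where its Benjamini-Hochberg adjusted p in limma, over all 14440 genes, was under 0.05. In bulk RNA, fewer cells of a type and less RNA per cell cannot be told apart.

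The labels were first checked against the target of the hairpin. Trp53, which encodes p53, read between -0.75 and -0.35 on the RASV12 arrays and between -4.14 and -3.06 on the 9 arrays of cells with the hairpin. Hras read 2.05, 2.19 and 2.0 in shp53 cells, 2.63, 2.36 and 2.84 in RASV12 cells, 1.34, 2.08 and 1.99 in the shp53-first group and 0.79, 1.47 and 1.64 in the RASV12-first group. The difference between RASV12 and shp53 cells, 0.53 ± 0.25, did not pass (adjusted p = 0.155), and Hras was lower in RASV12-first than in shp53 cells by -0.78 ± 0.25 (adjusted p = 0.0294), a call lost under normexp, with median scaling and without any 1 shp53 array or replicate 1 of RASV12-first cells. It was also lower than in RASV12 cells in both orders (-0.81 and -1.31, adjusted p = 0.0413 and 0.00279); the former call held in 4 of the 12 fits that left out 1 array and the latter in all 12. The labels do not name the RAS gene of the vector or its species, and whether this probe reads the vector's RNA is not given in the sources used here, so the RASV12 label has no check of its own. Between 56.6% and 62.5% of the spots of an array were well above background. Replicate 2 of shp53 and of RASV12 and replicate 1 of both groups with both vectors stood apart from the other 2 arrays of their group. Across genes, r was at least 0.993 within the closer pair of each group and at most 0.981 in the other pairs. Whether the arrays of a close pair come from separate cultures cannot be told from these values; if they do not, n is below 3 and the p-values given here are too small. All 10 fibroblast markers were well above background on every array. Their summed level was 489.5 to 634.8 times the 75th percentile in shp53 cells and 300 to 530.4 on the other arrays. Against shp53 cells 4 were lower in each group with both vectors, with 1 higher in the shp53-first and 2 in the RASV12-first group. Of all tested genes 20.3% and 23.8% were lower and 17.3% and 21.7% higher in these comparisons. In RASV12 against shp53 cells 3 markers were lower and 1 higher (12.8% and 14.3% of all tested genes). The summed level of 6 endothelial markers was 3.16 to 4.68 in shp53, 1.74 to 3.60 in RASV12, 1.03 to 2.45 in shp53-first and 1.12 to 1.92 in RASV12-first arrays. Of the 5 tested, 3 were lower in each group with both vectors than in shp53 cells, and 1 was higher in the RASV12-first group. Of all tested genes 20.3% and 23.8% were lower in shp53-first and RASV12-first than in shp53 cells. The summed level of 8 macrophage and leukocyte markers was 84.68, 11.5 and 84.35 times the 75th percentile on replicates 1, 2 and 3 of shp53 cells. It was 9.47 to 20.8 in RASV12 cells, 8.94 to 12.4 in the shp53-first group and 6.02 to 9.12 in the RASV12-first group. All 8 of these markers were above background in shp53 cells, whereas Ptprc was not in RASV12 cells and Ptprc, Adgre1 and Tyrobp were not in cells with both vectors. Against shp53 cells 6 of the 8 were lower and none higher in RASV12, shp53-first and RASV12-first cells alike. Of all tested genes 12.8%, 20.3% and 23.8% were lower in these comparisons. Of 8 epithelial markers, Epcam, Cdh1, Cldn4 and Ovol1 were not above background on any array, and the summed level was 1.19 to 1.42 in shp53 cells, 7.95 to 7.99 in RASV12 cells, 1.66 to 11.53 in the shp53-first group and 1.75 to 9.89 in the RASV12-first group, highest on replicate 1 in both of the last groups. The part of these markers in the differences below was not tested.

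RefSeq promoter windows of 300 bases (250 before to 50 after the annotated start, build GRCm38.p6) were available for 27 of the 34 genes. They were searched on both strands for the E2F words TTTCCCGC, TTTCGCGC, TTTGCCGC and TTTGGCGC, for the cell cycle homology region words TTTGAA and TTCGAA, and for CCAAT. E2F factors act on many genes of the G1 to S transition, and the other words occur in many promoters of the G2 and M phases. The windows of 9 genes (33.3%) held an E2F word, namely those of Brca2, Bard1, Rad51c, Fancg, Chek2, Msh6, Mdc1, Topbp1 and Clspn. Among all 11480 tested genes with a window the share was 4.33%, and it was 2.26% of all 32851 windows. CCAAT occurred in the windows of 16 of the 27 genes (59.3%, against 42.6% of tested genes and 37.4% of all windows). A cell cycle homology word occurred in 3 (11.1%, against 16.8% of tested genes and 19.2% of all windows). No E2F word overlapped another word in these windows. Matches are descriptions of the letters, not of bound sites.

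Promoters of 5 genes whose levels are given by array below are shown because they cover the range found: 1 E2F word each in Bard1, Msh6 and Mdc1, 6 CCAAT words and no E2F word in Xrcc3, and none of the words in Trp53bp1. They run 5′ to 3′ on the strand of the gene, with the words in capitals. In Bard1 (chr1:71102923-71103222, minus strand) the E2F word began at position -209 relative to the annotated start, in Msh6 (chr17:87974800-87975099, plus strand) at 15 and in Mdc1 (chr17:35841248-35841547, plus strand) at -16. The Xrcc3 window is chr12:111813830-111814129 and the Trp53bp1 window chr2:121271358-121271657, both on the minus strand.
Bard1: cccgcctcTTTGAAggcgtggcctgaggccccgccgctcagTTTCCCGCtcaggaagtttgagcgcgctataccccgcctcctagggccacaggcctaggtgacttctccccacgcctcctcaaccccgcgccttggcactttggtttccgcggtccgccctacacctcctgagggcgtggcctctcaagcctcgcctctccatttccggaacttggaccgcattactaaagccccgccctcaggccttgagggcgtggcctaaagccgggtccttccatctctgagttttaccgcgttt
Msh6: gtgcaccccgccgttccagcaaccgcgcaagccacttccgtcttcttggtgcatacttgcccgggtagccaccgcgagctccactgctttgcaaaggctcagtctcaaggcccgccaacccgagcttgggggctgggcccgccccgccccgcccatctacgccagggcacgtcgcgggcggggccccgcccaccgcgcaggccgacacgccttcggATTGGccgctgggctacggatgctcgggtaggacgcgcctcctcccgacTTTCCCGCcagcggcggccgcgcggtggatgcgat
Mdc1: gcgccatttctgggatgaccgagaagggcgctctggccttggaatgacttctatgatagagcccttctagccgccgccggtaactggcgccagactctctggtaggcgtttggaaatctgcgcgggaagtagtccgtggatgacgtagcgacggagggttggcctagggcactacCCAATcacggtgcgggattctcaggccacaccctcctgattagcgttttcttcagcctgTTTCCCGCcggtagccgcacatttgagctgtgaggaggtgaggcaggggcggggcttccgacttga
Xrcc3: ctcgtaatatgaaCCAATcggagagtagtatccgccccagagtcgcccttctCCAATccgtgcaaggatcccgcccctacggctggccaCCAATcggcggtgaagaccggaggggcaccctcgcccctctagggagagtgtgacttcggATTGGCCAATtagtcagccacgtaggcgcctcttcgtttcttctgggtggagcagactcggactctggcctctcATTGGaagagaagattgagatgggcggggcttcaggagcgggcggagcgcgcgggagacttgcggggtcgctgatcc
Trp53bp1: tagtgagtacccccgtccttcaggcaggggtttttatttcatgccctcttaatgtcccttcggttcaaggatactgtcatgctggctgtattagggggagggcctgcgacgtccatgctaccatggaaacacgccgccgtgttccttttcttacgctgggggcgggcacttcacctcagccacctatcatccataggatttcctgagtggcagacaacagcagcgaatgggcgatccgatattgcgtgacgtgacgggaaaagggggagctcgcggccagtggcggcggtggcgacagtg

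The main feature of these genes was a higher level in cells with both vectors than in cells with either alone, carried by 2 of the 3 replicates of each group. Replicates 2 and 3 of both groups with both vectors had the highest levels of most of the 31 tested genes. On replicates 2 and 3 of shp53-first cells, 29 of 31 and 27 of 30 of them lay above all 6 arrays of cells with a single vector, and on those of RASV12-first cells 28 of 31 each. On replicate 1 the numbers were 8 of 31 in shp53-first and 13 of 31 in RASV12-first cells. Over all tested genes, between 22.1% and 28.4% lay above all 6 single-vector arrays on these 6 arrays.

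**Figure D1:**
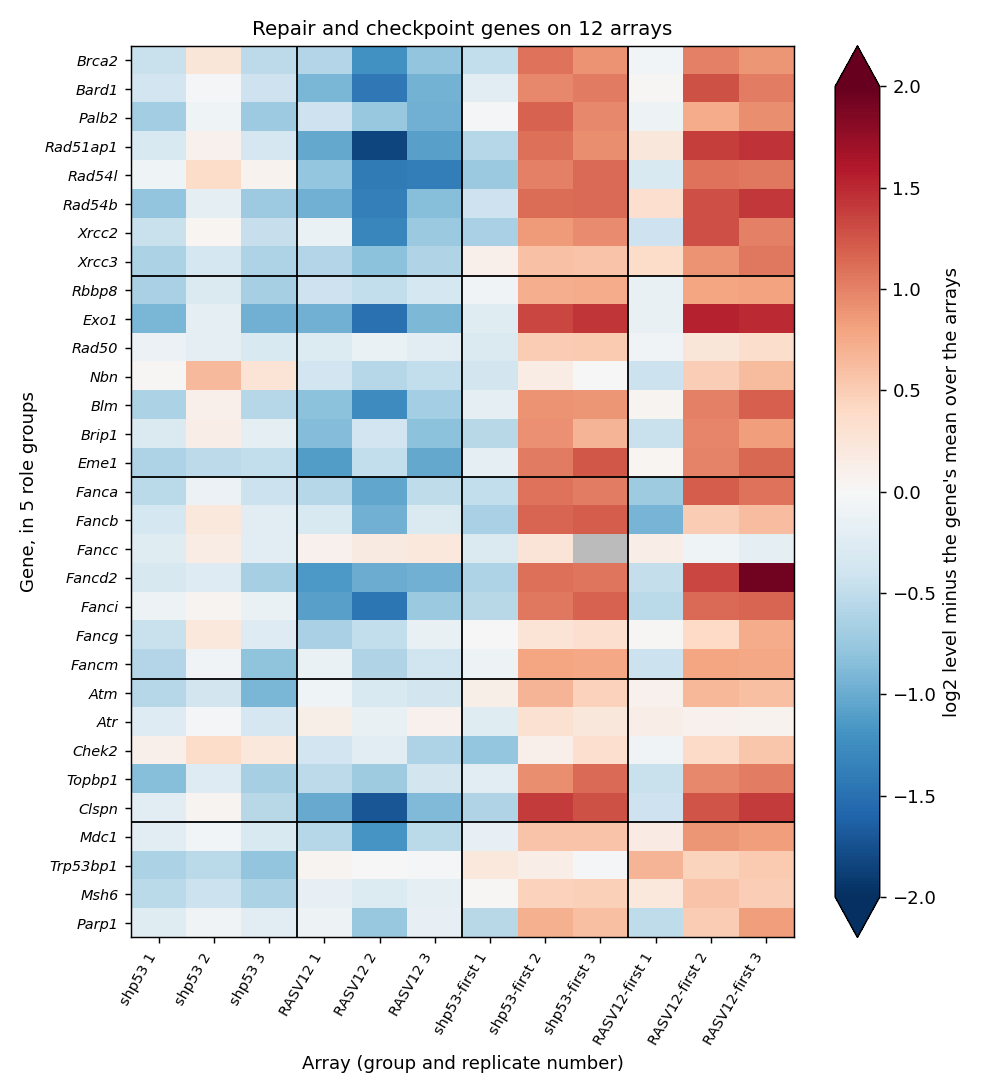
Each cell is the log2 level of 1 of the 31 tested genes (rows, in 5 role groups separated by lines) on 1 of 12 arrays (columns), minus the gene's mean over the arrays; the scale is cut at -2 and 2, and the grey cell is a flagged spot of Fancc. Replicates 2 and 3 of both groups with both vectors are red for most genes, and replicate 1 of those groups is close to the single-vector arrays for most genes.

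Replicate 1 of shp53-first cells was below both other replicates for 29 of 30 genes, with a median difference of -1.22 from their mean. In RASV12-first cells this held for 28 of 31 genes, with a median difference of -1.03. The same median over all genes was -0.024 and 0.11. These replicates enter the standard errors given below. Replicate 2 of shp53 was above both others for 29 of 31 genes (median difference 0.37), and replicate 2 of RASV12 was below both others for 21 of 31 (median difference -0.28).

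The question for cells given shp53 after RASV12 is how they differ from cells that received RASV12 alone. In RASV12-first cells 19 of the 31 genes were higher than in RASV12 cells and none was lower, against 17.2% of all tested genes higher and 21.7% lower (38.9% in either direction). None of the 31 had an unadjusted p under 0.05 in the lower direction in this or in the other 3 comparisons of both vectors with 1. The median difference of the 31 genes was 1.22 log2 units, against -0.069 over all genes, and 21 of the 31 had groups that did not overlap (51.1% of all genes). The recombination factors Rad51ap1 (2.33 ± 0.46, adjusted p = 0.00313) and Rad54b (2.08 ± 0.43, adjusted p = 0.00372) and the end-resecting nuclease Exo1 (2.08 ± 0.53, adjusted p = 0.0113) differed most, by 4.22 to 5.03-fold. The count was 11 without replicate 2 of RASV12, 11 without replicate 2 and 10 without replicate 3 of RASV12-first cells. Calls of 10 genes (Bard1, Rad51ap1, Rad54b, Blm, Exo1, Xrcc3, Msh6, Mdc1, Trp53bp1 and Eme1) held when any 1 of the 12 arrays was left out. The other 9 calls were all lost without replicate 3 of RASV12-first cells and, other than that of Fancg, without its replicate 2. Within slides, each of which held 1 array of every group and 1 replicate number, the median difference was 0.43 on slide 1, 1.51 on slide 2 and 1.59 on slide 3.

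The shp53-first cells were compared with the same 3 RASV12 arrays, so the values of these comparisons are not independent. Of the 31 genes, 16 were higher and none lower, against 10.3% of all tested genes higher and 15.1% lower (25.4% in either direction). The median difference was 1.09, against -0.054 over all genes, and the groups of 22 genes did not overlap (43.6% of all genes). Exo1 (1.96 ± 0.53, adjusted p = 0.0227), the checkpoint adaptor Clspn (1.88 ± 0.58, adjusted p = 0.0386) and Rad51ap1 (1.80 ± 0.46, adjusted p = 0.0184) differed most. This count moved with single arrays. It was 24 without replicate 1 of shp53-first cells, 2 without its replicate 2 or without its replicate 3, 7, 5 and 6 without replicates 1, 2 and 3 of RASV12, and 10 without replicate 1 of shp53. Only Bard1 and Xrcc3 held their call when any 1 array was left out, and the other 14 calls were all lost without replicate 2 and without replicate 3 of shp53-first cells. With each array scaled to its median in place of the 75th percentile the count was 9, and it was 1 when only these 2 groups were fitted, with the replicate as a block. Within slides the median difference was 0.30 on slide 1, 1.64 on slide 2 and 1.51 on slide 3.

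Both groups with 2 vectors were also compared with the 3 shp53 arrays. In RASV12-first cells 12 of the 31 genes were higher and none lower, against 21.7% of all tested genes higher and 23.8% lower (45.5% in either direction). The median difference was 0.92, against 0.022 over all genes, and the groups of 13 genes did not overlap (41.9%, below the 56.6% of all genes). Exo1 (1.65 ± 0.53, adjusted p = 0.0271), Rad54b (1.58 ± 0.43, adjusted p = 0.0123) and Xrcc3 (1.31 ± 0.20, adjusted p = 5.57e-04) were the highest of the called genes. The count was 5 without replicate 1 or replicate 3 of shp53 and without replicate 2 or replicate 3 of RASV12-first cells, and 23 without replicate 1 of RASV12-first cells. Calls of Rad54b, Xrcc3, Atm, Msh6 and Trp53bp1 held when any 1 array was left out, and the other 7 were each lost when any 1 of the 4 arrays whose loss left 5 was taken out. Within slides the median difference was 0.39, 0.98 and 1.44 on slides 1, 2 and 3. With each array scaled to its median, 19 genes were called higher, and the median of all genes in this comparison moved from 0.022 to 0.36.

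In shp53-first cells, set against shp53 cells, 9 of the 31 genes were higher and none lower, against 17.3% of all tested genes higher and 20.3% lower (37.6% in either direction). The median difference was 0.75, against 0.029 over all genes, and the groups of 8 genes did not overlap (25.8%, below the 53.3% of all genes). Exo1 (1.53 ± 0.53, adjusted p = 0.0436), the junction nuclease subunit Eme1 (1.24 ± 0.39, adjusted p = 0.0281) and the ATR activator Topbp1 (1.21 ± 0.43, adjusted p = 0.0481) were the highest of the called genes. The count fell to 4 without replicate 1 or replicate 3 of shp53 and without replicate 2 or replicate 3 of shp53-first cells, and was 21 without replicate 1 of shp53-first cells. The calls of Xrcc3, Atm, Msh6 and Trp53bp1 held when any 1 array was left out, and the other 5 were each lost when any 1 of the 4 arrays whose loss left 4 was taken out. Within slides the median difference was 0.047 on slide 1, 0.89 on slide 2 and 1.38 on slide 3. On slide 1, 17 of 31 genes were higher in shp53-first cells and 14 lower.

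The number of calls depended most on the arrays that stood apart and on the background correction. Without the 4 arrays that stood apart, 29 genes were higher in each order than in shp53 cells, and 28 in shp53-first and 29 in RASV12-first cells than in RASV12 cells, with 1 lower in the last. Each group then kept only its closer pair of arrays. The share of all tested genes called in that fit is not given here, so these counts have no background. With the closest pair of arrays of each group averaged to 1 value, 0 and 2 genes were higher than in shp53 cells and 0 and 1 than in RASV12 cells, in shp53-first and RASV12-first cells. With the normexp background correction the 4 counts were 0, 0, 0 and 5, in the same order. The medians of the 31 genes stayed above 0 under every alternative in these 4 comparisons, between 0.15 and 1.60.

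**Figure D2:**
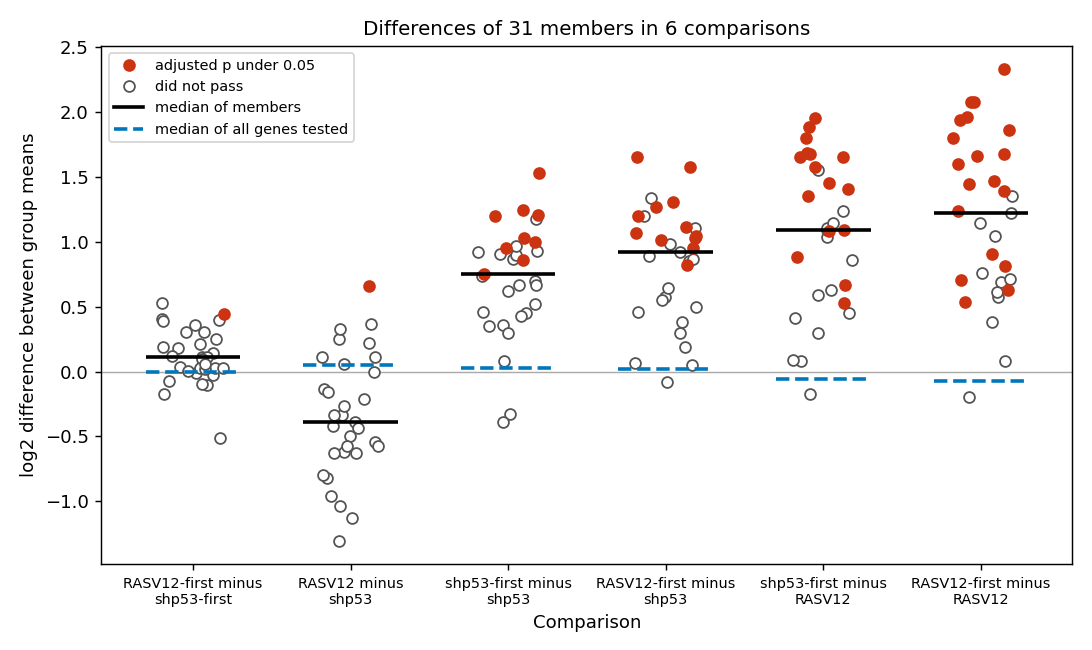
Each point is the log2 difference between 2 group means for 1 of the 31 tested genes in 1 of 6 comparisons (horizontal axis); red points passed an adjusted p under 0.05, open points did not, black lines are the median of the 31 genes and dashed blue lines that of all tested genes. The medians of the 31 genes are 0.75 to 1.22 in the 4 comparisons of both vectors with 1, -0.39 between RASV12 and shp53, and 0.11 between the 2 orders.

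Between the single-vector groups, RASV12 and shp53, 1 of the 31 genes was called, against 27.1% of all tested genes (14.3% higher and 12.8% lower in RASV12 cells). It was Trp53bp1, higher in RASV12 cells by 0.66 ± 0.12 (adjusted p = 0.00292), and its call held when any 1 array was left out. The other differences leaned the opposite way: 23 of the 31 were below 0, with a median of -0.39 against 0.049 over all genes. The groups of 15 genes did not overlap (51.2% of all genes), 13 of them lower in RASV12 cells, and Msh6 and Trp53bp1 higher. The mitosis genes described below lay in the same direction. All 19 were lower in RASV12 than in shp53 cells with no overlap of the groups (51.2% of all genes). Their median difference was -0.98 and none of them passed the test. The part of the mitosis genes was not tested. The recombination motor Rad54l (-1.30 ± 0.51, adjusted p = 0.0829), Rad51ap1 (-1.13 ± 0.46, adjusted p = 0.0994) and Fanci (-1.03 ± 0.52, adjusted p = 0.172) had the lowest values and did not pass. The count was 5 without replicate 1 of shp53-first cells, 3 without replicate 1 of RASV12-first cells and 2 without its replicate 3, since all groups share 1 estimate of the spread, and it was 9 in a fit of the 2 groups alone, 8 of them lower. Within slides the median difference was -0.13, -0.70 and -0.11. Without the 4 arrays that stood apart the median was -0.043, with 8 genes higher and 10 lower. The shares of all tested genes called in these alternative fits are not given here.

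The comparison named in the title is between the orders in which the vectors were given. Here 1 of the 31 genes was called, against 15.8% of all tested genes (7.33% higher and 8.47% lower in RASV12-first cells). The gene was again Trp53bp1, higher in RASV12-first cells by 0.45 ± 0.12 (adjusted p = 0.0342). The other 30 genes had differences from -0.51 to 0.53, and the median of all 31 was 0.11, against 4.44e-04 over all genes. The 95% intervals of the single differences, not adjusted over genes, had a median half-width of 0.86 log2 units. Smaller differences between the orders could therefore have been missed for many of these genes. Of the 31, only Trp53bp1 had an unadjusted p under 0.05 in limma. The sign of the median turned with single arrays: it was -0.27 without replicate 1 of shp53-first cells, and -0.082 and -0.040 without replicate 2 or replicate 3 of RASV12-first cells. Within slides it was 0.19, 0.078 and 0.073. Without the 4 arrays that stood apart, 5 genes were called higher with RASV12 first and 2 lower. The share of all tested genes called in that fit is not given here. Scaling each array to its median moved the median of all genes to 0.25 and that of the 31 to 0.36.

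The call of Trp53bp1 between the orders depended on the arrays in the fit. Its adjusted p ranged from 0.0103 to 0.706 over all alternatives, and it passed in 4 of the 12 fits that each left out 1 array (difference 0.37 to 0.50, adjusted p 0.0341 to 0.121). The call was lost without replicate 1 of shp53, replicates 1 or 3 of RASV12, replicates 2 or 3 of shp53-first cells, or any replicate of RASV12-first cells. Arrays with the same number in the 2 orders deviated together. With the replicate as a block the gene was called in the fit of all 4 groups, and in the fit of the 2 orders alone it was not (adjusted p = 0.0757). Within slides the gene was higher in RASV12-first cells on all 3, by 0.48, 0.30 and 0.56.

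**Figure D3:**
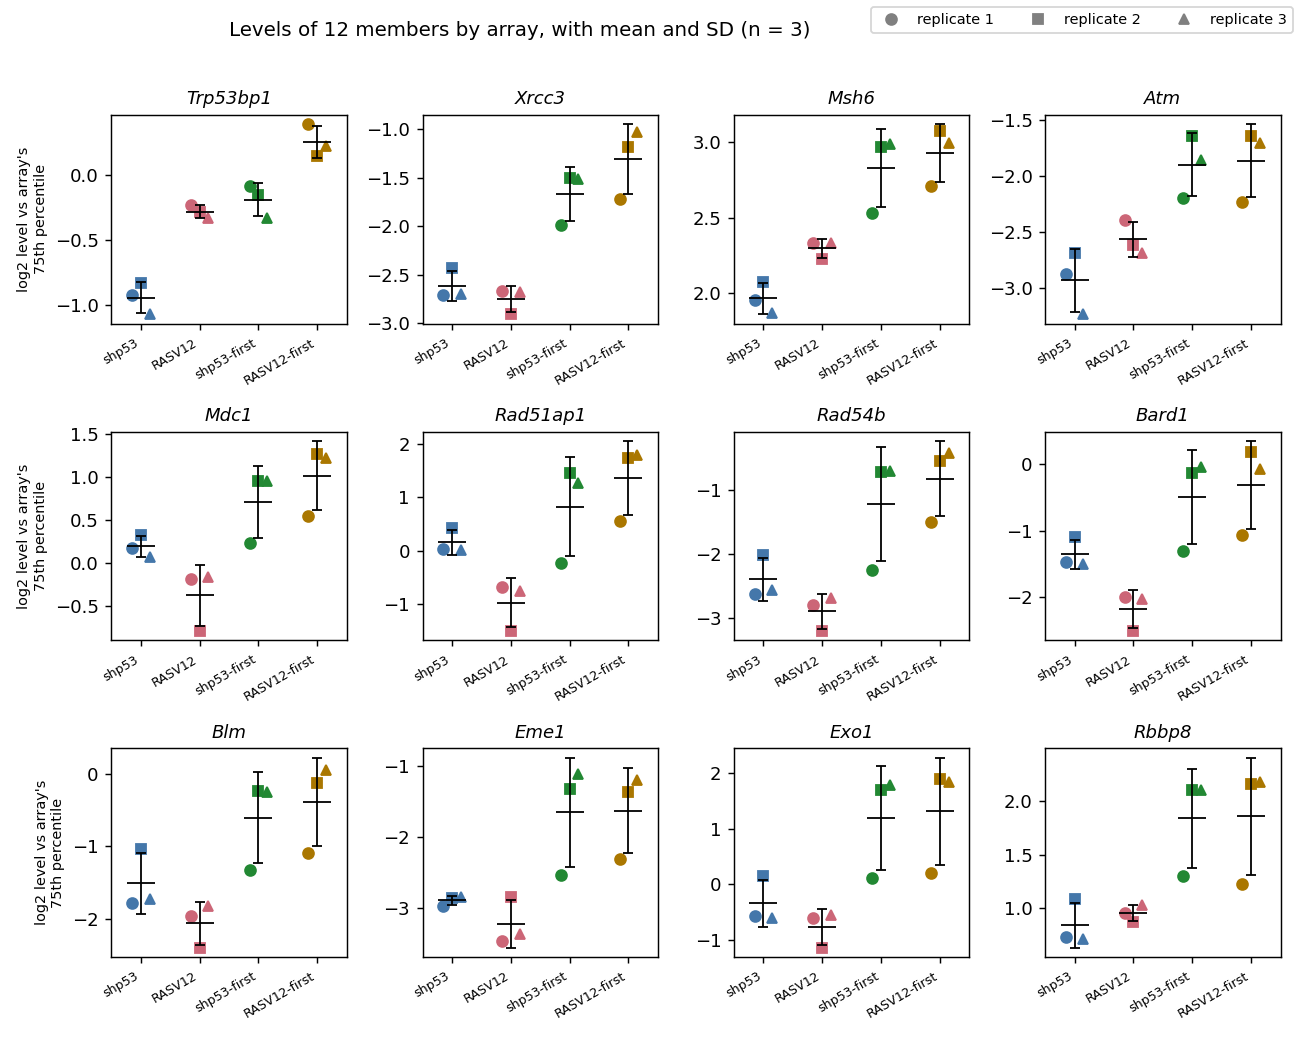
Log2 level relative to the array's 75th percentile (vertical axes, each with its own range) of the 12 genes with the smallest adjusted p, by group; symbols are the replicates 1, 2 and 3, horizontal lines the mean and bars the SD (n = 3). For most genes replicate 1 of both groups with both vectors lies well below replicates 2 and 3, while for Trp53bp1 it lies highest in those groups.

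Trp53bp1 encodes 53BP1, which binds chromatin around breaks, restrains the resection that starts homologous recombination and was first identified as a partner of p53. Its levels were -0.93, -0.83 and -1.07 in shp53 cells (replicates 1, 2 and 3 in this and the following sentences), -0.23, -0.29 and -0.33 in RASV12 cells, -0.087, -0.15 and -0.33 in the shp53-first group and 0.39, 0.15 and 0.23 in the RASV12-first group. The shp53 arrays were the lowest and the RASV12-first arrays the highest, with no overlap of either with any other group, while RASV12 and shp53-first cells overlapped. Trp53bp1 was the only one of the 31 genes called in 5 of the 6 comparisons. It was higher than in shp53 cells by 0.75 ± 0.12 in shp53-first cells (adjusted p = 0.00101) and by 1.20 ± 0.12 in RASV12-first cells (adjusted p = 3.71e-05), which was 2.30-fold. The difference between shp53-first and RASV12 cells, 0.093 ± 0.12, did not pass (adjusted p = 0.626). Its other kept probe, above background on all 12 arrays, had the same sign in all 6 comparisons. With the mean of the 2 probes the orders were not called apart. Against RASV12 cells that probe gave 0.58 in shp53-first and 1.045 in RASV12-first cells, where the probe used gave 0.093 and 0.54. The closeness of RASV12 to shp53-first cells therefore rests on the probe. Unlike most of the genes, it was not lower on replicate 1 of the groups with both vectors.

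Mdc1, the scaffold that binds marked chromatin at breaks, followed the general pattern. It read 0.19, 0.33 and 0.078 in shp53 cells, -0.18, -0.78 and -0.15 in RASV12 cells, 0.23, 0.96 and 0.95 in the shp53-first group and 0.56, 1.28 and 1.23 in the RASV12-first group. All RASV12 arrays lay below all others, and replicate 1 of shp53-first cells lay within the range of shp53 cells. Mdc1 was higher than in RASV12 cells by 1.09 ± 0.27 in shp53-first cells (adjusted p = 0.015) and by 1.39 ± 0.27 in RASV12-first cells (adjusted p = 0.00258). The first of these calls was lost without replicate 2 or replicate 3 of shp53-first cells. It was higher than in shp53 cells in RASV12-first cells (0.82 ± 0.27, adjusted p = 0.0288), a call lost without replicates 1 or 3 of shp53 or 2 or 3 of RASV12-first cells.

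Msh6, a subunit of the sensor of mismatched bases, differed less between replicates. It read 1.96, 2.08 and 1.87 in shp53 cells, 2.33, 2.23 and 2.33 in RASV12 cells, 2.53, 2.97 and 2.98 in the shp53-first group and 2.71, 3.07 and 2.99 in the RASV12-first group. All 6 arrays with both vectors lay above all 6 single-vector arrays, and RASV12 above shp53. Msh6 was called in the 4 comparisons of both vectors with 1, with 0.86 ± 0.16 (adjusted p = 0.00182) and 0.96 ± 0.16 (adjusted p = 7.21e-04) against shp53 cells. Against RASV12 cells the differences were 0.53 ± 0.16 in shp53-first (adjusted p = 0.0314) and 0.63 ± 0.16 in RASV12-first cells (adjusted p = 0.00988). The former call was lost without any 1 of the RASV12 arrays or without replicate 2 or replicate 3 of shp53-first cells, and under normexp the latter difference was -0.031. Parp1, which binds nicks and breaks and recruits repair proteins, was not called in any comparison (differences from -0.16 to 0.61).

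Among the genes of the BRCA complex and the factors that assist strand pairing, 8 were tested. None was called between the orders (none at an unadjusted p under 0.05) or between the single-vector groups (2 lower at an unadjusted p under 0.05), 2 and 4 were higher in shp53-first and RASV12-first cells than in shp53 cells, and 7 in each than in RASV12 cells. The shares of all tested genes called higher in these comparisons were 17.3% and 21.7% against shp53 and 10.3% and 17.2% against RASV12 cells, so that 2 of 8 (25%) was near the background. Xrcc3, which acts in strand pairing, was called in all 4 comparisons of both vectors with 1. It read -2.71, -2.44 and -2.70 in shp53 cells, -2.67, -2.91 and -2.69 in RASV12 cells, -1.99, -1.50 and -1.51 in the shp53-first group and -1.72, -1.18 and -1.03 in the RASV12-first group. The single-vector groups overlapped, and all 6 arrays with both vectors lay above them. Against RASV12 cells it was higher by 1.09 ± 0.20 (adjusted p = 0.0041) in shp53-first and by 1.45 ± 0.20 (adjusted p = 4.32e-04) in RASV12-first cells, and against shp53 cells by 0.95 ± 0.20 (adjusted p = 0.00473) in shp53-first cells. All its calls held when any 1 array was left out.

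Rad51ap1, which stimulates the formation of joint molecules, had the largest difference of the 31 genes. It read 0.035, 0.43 and 0.013 in shp53 cells, -0.67, -1.49 and -0.74 in RASV12 cells, -0.23, 1.45 and 1.27 in the shp53-first group and 0.57, 1.73 and 1.79 in the RASV12-first group. The RASV12 arrays were lowest, and replicate 1 of shp53-first cells lay between them and the shp53 arrays. Rad54b, a DNA translocase of recombination, read -2.62, -2.01 and -2.55 in shp53 cells, -2.79, -3.20 and -2.69 in RASV12 cells, -2.25, -0.71 and -0.69 in the shp53-first group and -1.49, -0.53 and -0.42 in the RASV12-first group. All RASV12-first arrays lay above all single-vector arrays, and replicate 1 of shp53-first cells lay within the shp53 range. The calls of both genes between shp53-first and RASV12 cells were lost without replicate 2 of RASV12 or replicate 2 or 3 of shp53-first cells. The 2 kept probes of Rad54b had the same sign in all comparisons.

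Bard1, the obligate partner of BRCA1, read -1.47, -1.10 and -1.50 in shp53 cells, -2.0, -2.52 and -2.03 in RASV12 cells, -1.31, -0.13 and -0.045 in the shp53-first group and -1.07, 0.19 and -0.064 in the RASV12-first group. The RASV12 arrays lay below all others and the pairs of replicates 2 and 3 with both vectors above all others. The difference from RASV12 cells was 1.69 ± 0.39 (adjusted p = 0.0108) in shp53-first and 1.87 ± 0.39 (adjusted p = 0.00386) in RASV12-first cells. These values come from the brightest of 3 kept probes. Of the others, the one above background on 7 of 12 arrays had the same signs (2.07 and 2.32), and the one above background on all 12 arrays had the opposite sign in these comparisons (-0.23 and -0.41), so the direction for Bard1 rests on the probe. Palb2, which bridges BRCA1 and BRCA2, was called in the 4 comparisons of both vectors with 1 (differences 1.03 to 1.41), with 2 probes of the same sign. Brca2, a mediator of strand pairing, and Rad54l were called against RASV12 cells alone (1.35 and 1.47 for Brca2, 1.66 and 1.80 for Rad54l in shp53-first and RASV12-first cells), and Xrcc2 was not called (0.67 to 1.36 in those 4 comparisons).

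Brca1 was well above background on 3 arrays, replicate 2 of shp53-first cells and replicates 2 and 3 of RASV12-first cells, where it read -5.11, -5.38 and -5.47. Chek1, the kinase that ATR activates, was above background on 1 array, replicate 2 of shp53-first cells, at -5.62. On the other arrays both were not well above background and have no fold here. When the filter on dim probes was removed and both were tested, the called genes in the comparison of shp53-first with RASV12 cells numbered 10 of 33, against 16 of 31.

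Of 7 genes for resection, helicases and junction nucleases, Rbbp8, Exo1, Blm and Eme1 were called, and Rad50, Nbn and Brip1 were not. In shp53-first and RASV12-first cells 3 and 4 were higher than in shp53 cells (17.3% and 21.7% of all tested genes). Against RASV12 cells 4 were higher in each (10.3% and 17.2%). Rbbp8 encodes CtIP, which starts resection. It read 0.73, 1.09 and 0.71 in shp53 cells, 0.96, 0.88 and 1.03 in RASV12 cells, 1.31, 2.10 and 2.11 in the shp53-first group and 1.23, 2.17 and 2.18 in the RASV12-first group. The single-vector groups overlapped and all arrays with both vectors lay above them. It was called in all 4 comparisons of both vectors with 1, at 0.89 to 1.02, and each of these calls was lost without replicate 2 or without replicate 3 of the group with both vectors, among other arrays.

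Exo1, which extends resection, read -0.56, 0.15 and -0.61 in shp53 cells, -0.61, -1.14 and -0.54 in RASV12 cells, 0.11, 1.69 and 1.78 in the shp53-first group and 0.21, 1.89 and 1.85 in the RASV12-first group. Replicate 1 with both vectors lay near replicate 2 of shp53 and far below replicates 2 and 3 of its own group. The calls against shp53 cells were lost without replicates 1 or 3 of shp53 or replicates 2 or 3 of the group with both vectors, that in shp53-first cells also without any 1 RASV12 array, and that of shp53-first against RASV12 cells without any 1 of the RASV12 arrays or replicates 2 or 3 of shp53-first cells. Blm, the helicase mutated in Bloom syndrome, read -1.78, -1.03 and -1.72 in shp53 cells, -1.95, -2.39 and -1.82 in RASV12 cells, -1.32, -0.24 and -0.25 in the shp53-first group and -1.09, -0.14 and 0.047 in the RASV12-first group. It was higher than in RASV12 cells by 1.45 ± 0.38 (adjusted p = 0.0185) and 1.67 ± 0.38 (adjusted p = 0.00609) in shp53-first and RASV12-first cells, with no overlap. The former call was lost without replicate 2 of RASV12 or replicate 2 or 3 of shp53-first cells.

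Eme1, the partner of the nuclease MUS81, read -2.97, -2.87 and -2.85 in shp53 cells, -3.47, -2.84 and -3.37 in RASV12 cells, -2.54, -1.32 and -1.11 in the shp53-first group and -2.31, -1.36 and -1.20 in the RASV12-first group. All arrays with both vectors lay above all single-vector arrays, by little on replicate 1. It was called against both single-vector groups, at 1.24 ± 0.39 to 1.60 ± 0.39, and only the call between RASV12-first and RASV12 cells held without any 1 array. Nbn, of the MRE11 complex that tethers ends, had the smallest adjusted p of the 3 genes not called, between RASV12 and shp53 cells (-0.80 ± 0.27, adjusted p = 0.0537). Its differences from shp53 cells with both vectors were -0.39 and -0.084, the opposite sign to the median of its role group (0.91 and 1.02). Rad50, of the same complex, had differences from -0.069 to 0.45.

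Of 7 Fanconi anaemia genes tested, 0 were called against shp53 cells in either order (1 and 3 higher at an unadjusted p under 0.05 in limma, medians 0.70 and 0.65), 1 of 7 in shp53-first and 3 of 7 in RASV12-first cells against RASV12 cells. Of all tested genes 10.3% and 17.2% were higher in the latter comparisons, so the count of 1 was near the background. Fanci, which pairs with FANCD2 at crosslinks, was the gene called in both, at 1.65 ± 0.52 (adjusted p = 0.0406) and 1.68 ± 0.52 (adjusted p = 0.0271). Fancd2 was called in RASV12-first cells (1.96 ± 0.59, adjusted p = 0.0231), although it was well above background on only 1 of 3 RASV12 arrays and 2 of 3 RASV12-first arrays, so the size of this difference rests in part on signals not well above background. Fancg, of the core complex, was called in RASV12-first cells too (0.82 ± 0.23, adjusted p = 0.0181). Each of these 4 calls was lost when replicate 3 of the group with both vectors was left out. Fanca, Fancb, Fancc and Fancm were not called. Fancc had differences from -0.20 to 0.25 with standard errors of 0.18 to 0.20, from 2 arrays in shp53-first cells, where 1 spot was flagged.

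Among the checkpoint kinases and their activators, 5 were tested. Atm, the kinase activated by breaks, read -2.88, -2.68 and -3.23 in shp53 cells, -2.39, -2.62 and -2.69 in RASV12 cells, -2.20, -1.64 and -1.86 in the shp53-first group and -2.23, -1.65 and -1.71 in the RASV12-first group. All arrays with both vectors lay above all single-vector arrays. Against shp53 cells it was higher by 1.03 ± 0.21 (adjusted p = 0.00399) in shp53-first and 1.07 ± 0.21 (adjusted p = 0.00246) in RASV12-first cells, calls that held when any 1 array was left out. Against RASV12 cells the differences were 0.67 ± 0.21 (adjusted p = 0.0439) and 0.70 ± 0.21 (adjusted p = 0.0251), and both calls were lost without replicate 2 or replicate 3 of RASV12 or of the group with both vectors. Under normexp the difference between shp53-first and shp53 cells was -0.0064.

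Clspn, the adaptor through which ATR reaches CHEK1, was called against RASV12 cells in both orders (1.88 ± 0.58 and 1.94 ± 0.58, adjusted p = 0.0386 and 0.024). Topbp1, an activator of ATR, was called once, in shp53-first against shp53 cells, a call that held only without replicate 1 of shp53-first cells or without replicate 1 or 3 of RASV12-first cells. Atr itself had differences from 0.0024 to 0.30 and Chek2 from -0.62 to 0.69, none of which passed. For Atr the 95% interval of the difference between the orders ran from -0.36 to 0.37.

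Of the 31 genes, 20 were called in at least 1 comparison and 11 in none. Those 11 were Brip1, Fanca, Fancb, Fancc, Fancm, Xrcc2, Atr, Chek2, Rad50, Nbn and Parp1. Every called difference of these genes was positive in the order of subtraction used, that is, higher with both vectors than with 1, higher in RASV12 than in shp53 cells, or higher in RASV12-first than in shp53-first cells. In single comparisons between 15.8% and 45.5% of all tested genes were called. The share called in at least 1 of the 6 is not given here, so the count of 20 has no background.

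Other genes of the same pathways were counted from lists of genes outside the 34. Of 30 other homologous recombination and Fanconi genes tested, 15 were higher in RASV12-first and 6 in shp53-first cells than in RASV12 cells, against 17.2% and 10.3% of all tested genes, with medians of 0.64 and 0.47. Against shp53 cells 11 were higher in RASV12-first cells, and 3 were higher and 1 lower in shp53-first cells (21.7% and 17.3% of all genes higher). Over the 26 alternatives the calls in these 4 comparisons ran from 2 to 21, 0 to 25, 0 to 24 and 0 to 22. Between RASV12 and shp53 cells 1 of the 30 was called, against 27.1% of all tested genes. This was Fancf, of the Fanconi core complex, lower in RASV12 cells (0.17, 0.15 and 0.29) than in shp53 cells (1.64, 1.67 and 1.69), by -1.46 ± 0.15 (adjusted p = 9.02e-05). Rpa3, of the single-strand binding complex, was higher than in RASV12 cells by 1.02 ± 0.21 (adjusted p = 0.00609) in shp53-first cells. Between the orders 3 of the 30 were called, all higher in RASV12-first cells (10%, against 15.8% of all tested genes). They included the helicase gene Wrn, higher in RASV12-first than in shp53-first cells by 0.54 ± 0.15 (adjusted p = 0.0339). Its call was lost without replicates 1 or 3 of shp53, 1 of RASV12, 1 or 2 of shp53-first or 1 or 3 of RASV12-first cells.

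Of 22 other checkpoint and damage signalling genes, 10 were higher and none lower in each order than in shp53 cells, against 17.3% of all tested genes higher in shp53-first and 21.7% in RASV12-first cells. Against RASV12 cells 7 were higher in shp53-first cells, whereas in RASV12-first cells 10 were higher and 1 lower (10.3% and 17.2% of all genes higher). Over the alternatives the calls ran from 0 to 20 in both comparisons with shp53 cells, and from 0 to 16 and 3 to 20 in those with RASV12 cells. Timeless, of the fork protection complex, read 0.17, 0.42 and 0.14 in shp53 cells, 1.58, 2.01 and 1.81 in the shp53-first group and 1.40, 2.61 and 2.61 in the RASV12-first group, a difference of 1.56 ± 0.29 (adjusted p = 0.00201) and 1.97 ± 0.29 (adjusted p = 3.7e-04). Rif1, which acts with 53BP1, was higher than in shp53 cells by 1.36 ± 0.24 (adjusted p = 0.00157) in shp53-first and 1.61 ± 0.24 (adjusted p = 4.23e-04) in RASV12-first cells. Their calls held when any 1 array was left out.

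Of 20 end joining and mismatch repair genes, which serve the other routes of repair, 3 were higher in RASV12-first than in shp53-first cells and none lower. This share, 15%, was near the 15.8% of all tested genes called in that comparison, and the count ran from 0 to 9 over the alternatives. The 3 genes included Xrcc4 (0.50 ± 0.11, adjusted p = 0.014) and the polymerase gene Poll (0.54 ± 0.13, adjusted p = 0.0166), the former lost without replicate 2 of shp53-first or 3 of RASV12-first cells and the latter without replicates 2 or 3 of RASV12-first cells. In RASV12-first cells 10 of the 20 were higher and 1 lower than in shp53 cells (21.7% of all tested genes higher). Set against RASV12 cells, 8 were higher and 2 lower (17.2%). The shp53-first group had 6 higher and none lower against shp53 cells, and 4 higher and 2 lower against RASV12 cells (17.3% and 10.3%). The medians were 0.54, 0.25, 0.25 and 0.20, in the order given. Over the alternatives these calls ran from 0 to 16, 3 to 13, 0 to 11 and 1 to 15. Xrcc5, which encodes the KU80 end-binding subunit, was higher in RASV12 cells: it read 1.41, 1.07 and 1.40 in RASV12 cells and between -1.03 and 0.061 on the other 9 arrays. It was higher in RASV12 than in shp53 cells by 2.06 ± 0.21 (adjusted p = 6.52e-05) and lower in RASV12-first than in RASV12 cells by -1.57 ± 0.21 (adjusted p = 2.78e-04). Of the 20 genes, 3 were higher and 1 lower in RASV12 than in shp53 cells, against 14.3% and 12.8% of all tested genes. The median of this list on replicate 1 was -0.61 in shp53-first and -0.36 in RASV12-first cells, against -0.48 and -0.46, and -0.38 and -0.25, on replicates 2 and 3.

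Genes of cell division also differed between the replicates with both vectors. The median of 19 mitosis genes on replicates 1, 2 and 3 was 0.31, 2.72 and 2.55 in the shp53-first group and 0.87, 3.13 and 3.02 in the RASV12-first group, against 1.46 to 1.67 in shp53 and 0.15 to 0.71 in RASV12 cells. For 25 DNA replication genes it was 0.50, 2.03 and 1.90 in shp53-first and 0.29, 2.14 and 2.06 in RASV12-first cells, against 0.31 to 0.71 in shp53 and -0.27 to 0.50 in RASV12 cells. The median of the 31 repair genes was -1.79, -0.24 and -0.31 in the shp53-first group, -1.72, -0.53 and -0.42 in the RASV12-first group, -1.67 to -1.12 in shp53 cells and -2.39 to -1.93 in RASV12 cells. The part of the level of cell division in the differences of the repair genes was not tested. On replicate 1 with both vectors the mitosis median lay below all shp53 arrays, and that of the repair genes below them in both orders as well, although gene by gene the median difference from shp53 on slide 1 was above 0 (0.047 and 0.39).

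**Figure D4:**
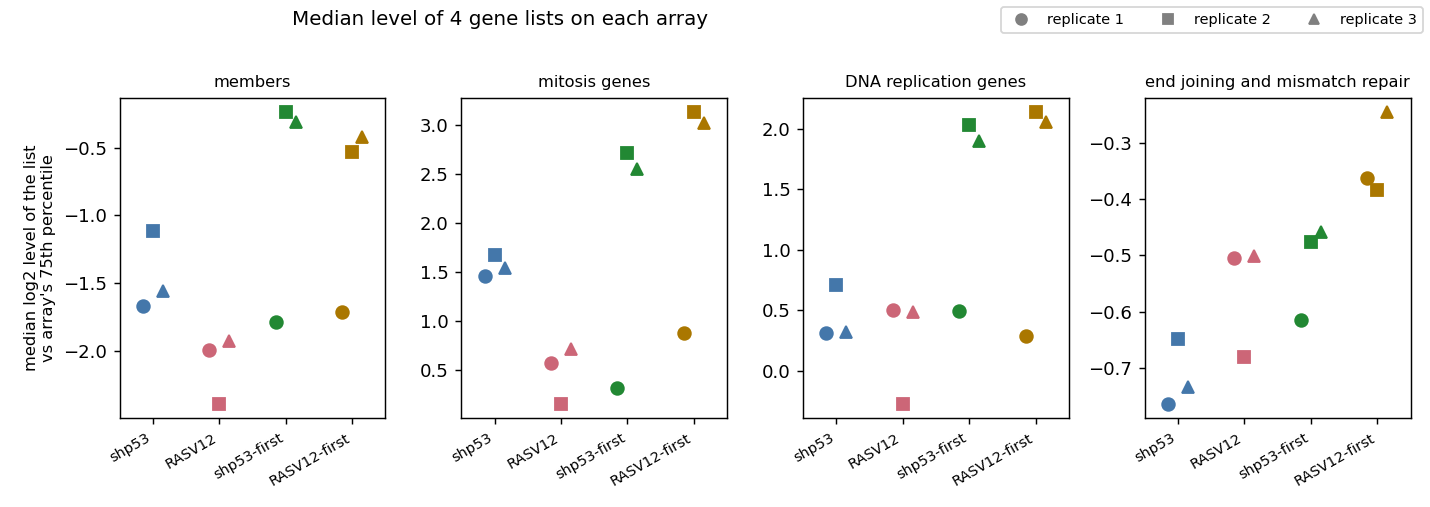
Median log2 level of the tested genes of 4 lists on each array, relative to the array's 75th percentile (vertical axes, each with its own range), by group; symbols are the replicates. In the first 3 panels replicates 2 and 3 of both groups with both vectors lie above every other array, and replicate 1 lies among the single-vector arrays.

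In counts, 14 of 19 mitosis genes and 15 of 25 replication genes were higher in RASV12-first than in RASV12 cells (17.2% of all tested genes), and 3 and 10 in shp53-first cells (10.3%). Over the alternatives the calls in either direction ran from 1 to 19 and 1 to 24, and from 0 to 19 and 0 to 24. Against shp53 cells, 1 and 0 mitosis genes (3 and 2 at an unadjusted p under 0.05 in limma) and 12 and 6 replication genes were higher in RASV12-first and shp53-first cells (21.7% and 17.3% of all tested genes). Over the alternatives the mitosis calls in either direction ran from 0 to 19 in both, and the replication calls from 1 to 24 and 1 to 25. Pcna, the sliding clamp of replication, was higher in RASV12-first than in shp53 (0.90 ± 0.31, adjusted p = 0.0374) and RASV12 cells (1.0 ± 0.31, adjusted p = 0.0276), calls lost without any 1 array of the single-vector group compared or replicates 2 or 3 of RASV12-first cells, the former also without replicate 1 of RASV12. Mki67, a marker of dividing cells, read 0.97, 3.56 and 3.47 in shp53-first cells, so its replicate 1 lay below the shp53 arrays (2.19 to 2.58) and within the range of RASV12 cells (0.74 to 1.27).

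The p53 protein, on which the checkpoint kinases act, has direct target genes of its own. Of 18 of these, 9 were higher in RASV12 than in shp53 cells and none lower, and 10 were lower in each group with both vectors than in RASV12 cells, with 1 higher in each. The shares of all tested genes were 14.3% higher in RASV12 than in shp53 cells, and 15.1% and 21.7% lower in shp53-first and RASV12-first than in RASV12 cells. Over the alternatives the calls in either direction ran from 3 to 11, 3 to 13 and 5 to 16. Cdkn1a, the CDK inhibitor p21, read 3.52, 3.82 and 3.64 in RASV12 cells and between 2.14 and 2.88 on all other arrays. It was higher in RASV12 than in shp53 cells by 1.21 ± 0.16 (adjusted p = 3.26e-04). The comparison of the orders called 4 of the 18 targets higher with RASV12 given first and 3 lower. The shares of all tested genes in these directions were 7.33% and 8.47%. Over the alternatives the calls in either direction ran from 0 to 10. Perp was lower in RASV12-first than in shp53-first cells by -2.89 ± 0.34 (adjusted p = 3.03e-04), and Fas by -1.45 ± 0.20 (adjusted p = 8.38e-04). Mdm2 was higher by 0.59 ± 0.14 (adjusted p = 0.0152), a call lost without replicate 2 of shp53-first or 3 of RASV12-first cells.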

How the data were processed

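RNA of 12 samples was labelled with Cy3 (100 ng of total RNA each) and hybridised to 1-colour Agilent arrays, per the labels' protocols. The deposited intensity values were background-subtracted within each array by Agilent Feature Extraction (11.5.1.1 per the file headers, 10.7.3.1 per the submitters' processing notes). The authors' deposited log2 table (25916 rows) served as an alternative; how it was scaled is not given in the sources used here, and its arrays correlated at 0.99 to 0.9998 with the values computed here.

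Log2 processed intensities were centred on each array's 75th percentile over non-control spots. Spots flagged as outliers (1717 values, 0.333%) were left out; none was saturated. Probes were named through RefSeq and Ensembl accessions (28330 of 39429). Probes that in no group were well above background throughout its 3 arrays were left out, and the brightest kept probe stood for a gene. Limma 3.58.1 (R 4.3.3) was fitted to all 12 arrays with 1 mean per group and no block, and p-values were adjusted over 14440 genes. The fitting code was run on simulated arrays with independent noise, so that run cannot check the p-values where arrays deviate together. Slides held 1 array of each group and shared its replicate number. Deviations of same-numbered arrays from their group means correlated (0.60, 0.45 and 0.32) between the 2 groups with both vectors; in every other pair of groups at least 1 correlation was not above 0.1. The number of arrays limits the precision.

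Alternatives changed background correction, scaling, filter, probe rule, spread, block, source table and arrays; 5 were chosen after seeing the data. The planned normexp correction used median pixel signals. The 34 genes and all lists were chosen with earlier results of these data known. By rule, array values were given for the 12 of the 34 genes with the smallest adjusted p, and up to 4 genes were named from each other list, besides fixed ones (Trp53, Hras, Cdkn1a, Mdm2, Mki67 and Pcna); 1 further fixed gene is not reported here. Promoters are RefSeq's, build GRCm38.p6; the arrays' own coordinates were not used.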

Additional observations from a re-analysis of the deposited data

How the results depend on the processing

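Counts of the 31 genes called are given in the order RASV12-first against shp53-first, RASV12 against shp53, shp53-first and RASV12-first against shp53, and shp53-first and RASV12-first against RASV12 (main values 1, 1, 9, 12, 16 and 19). Leaving out 1 array gave 0 to 1, 1 to 5, 4 to 21, 5 to 23, 2 to 24 and 10 to 27. Normexp with an offset of 50 gave 0, 0, 0, 0, 0 and 5. Without the 4 arrays that stood apart they were 7, 18, 29, 29, 28 and 30, and with the closest pair of each group averaged 0, 0, 0, 2, 0 and 1. In the 2 groups alone they were 0, 9, 5, 11, 10 and 19, and with the replicate block as well 0, 5, 7, 12, 1 and 13. With the replicate block in the fit of all groups they were 1, 2, 11, 16, 20 and 23. The order count was also 0 with no filter on dim probes, with the mean of a gene's probes and with extreme local backgrounds replaced (77 spots). RASV12 against shp53 gave 2 with a trended, robust spread. Scaling to the array median gave 19 for RASV12-first against shp53 and 9 for shp53-first against RASV12, which was 10 with no filter. The settings not named for a comparison kept its count within 1.5 times the main value. The shares of all tested genes called under the alternatives are not given here. Among the called differences of the 31 genes and of those picked from other lists, signs reversed under normexp alone, none past the threshold. These were Palb2 (-0.11, adjusted p = 0.914), Atm (-0.0064, adjusted p = 0.994) and Cdc45 (-0.19, adjusted p = 0.853) in shp53-first against shp53, and Msh6 (-0.031, adjusted p = 0.954) in RASV12-first against RASV12. The cause was not tested. Brca1 and Chek1 were limited by signal over background.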
